A study of Mus musculus with 14 samples.

Results

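The immediate early response genes described here are 10 genes, Fos, Fosb, Jun, Junb, Jund, Egr1, Dusp1, Ier2, Nr4a1 and Atf3, taken by name from the probe annotation of the array. They were measured by 16 probes, out of 36870 gene names and 56605 probes on the array. CD4+ T-cells gave 7 samples from Roquin san/+ mice, which are heterozygous in all their cells for the sanroque mutation of Roquin (Rc3h1), a repressor of T-cell messenger RNAs, and 7 samples from wild-type mice. The total RNA of each sample was labelled with Cy3 and put on 1 single-colour array, and the labels name no treatment or stimulation, and no age or sex, for either genotype. The replicate letters A to G name the arrays of a genotype. Nothing beyond separate samples is stated about the animals, so P values measure the spread between these samples.

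Immediate early genes are transcribed within minutes of a signal such as T-cell receptor engagement, without new protein synthesis, through kinase cascades that act on factors already bound to their promoters. Most encode transcription factors or feedback regulators with short-lived messenger RNAs, and many are also induced by handling and dissociation of cells. In T-cells Fos and Jun proteins form the AP-1 complex, which acts with NFAT at cytokine genes, while Egr1 and Nr4a1 report antigen receptor signalling.

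The promoters of genes that moved together or in opposite directions from array to array are shown first. RefSeq promoter sequences (build GRCm38.p6) were available for 8 of the 10 genes, and the 250 bases before the transcription start of 4 of them follow, 5′ to 3′ on the gene's own strand. Capitals mark TGACG, the core of a cAMP response element, or its reverse complement CGTCA, the full element TGACGTCA, and TATAAA. Fos and Jun are shown as the most closely correlated pair below, and Dusp1 as a gene that followed Fos less closely. Nr4a1 is shown as a gene that correlated with Egr1 by Pearson r over all arrays. That relation was weaker by rank and depended on which arrays were kept.
Fos, chr12:85473640-85473889, plus strand: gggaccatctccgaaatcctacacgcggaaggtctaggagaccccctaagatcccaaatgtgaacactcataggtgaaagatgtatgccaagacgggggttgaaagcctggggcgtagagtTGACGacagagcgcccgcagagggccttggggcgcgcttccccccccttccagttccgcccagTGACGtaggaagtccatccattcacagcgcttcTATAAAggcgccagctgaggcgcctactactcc
Jun, chr4:95052223-95052472, minus strand: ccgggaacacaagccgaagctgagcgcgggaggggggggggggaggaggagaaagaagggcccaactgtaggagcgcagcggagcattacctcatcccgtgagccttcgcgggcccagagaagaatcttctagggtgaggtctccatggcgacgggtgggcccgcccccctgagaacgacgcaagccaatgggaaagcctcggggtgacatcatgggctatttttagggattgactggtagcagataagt
Dusp1, chr17:26508473-26508722, minus strand: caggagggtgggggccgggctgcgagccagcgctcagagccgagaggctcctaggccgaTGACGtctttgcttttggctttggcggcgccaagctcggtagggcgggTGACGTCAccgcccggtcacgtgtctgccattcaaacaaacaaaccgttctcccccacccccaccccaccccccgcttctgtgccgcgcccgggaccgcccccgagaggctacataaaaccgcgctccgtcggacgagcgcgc
Nr4a1, chr15:101266596-101266845, plus strand: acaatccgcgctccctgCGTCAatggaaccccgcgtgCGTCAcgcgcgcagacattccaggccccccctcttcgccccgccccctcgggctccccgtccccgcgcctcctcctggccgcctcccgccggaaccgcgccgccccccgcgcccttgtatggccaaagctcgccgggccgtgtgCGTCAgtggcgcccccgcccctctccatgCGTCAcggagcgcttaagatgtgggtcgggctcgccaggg

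TGACG stood in the promoters of 6 of the 8 genes, against 17.8% of all 32851 promoters searched in the same window and on both strands. In Fos it lay 129 and 66 bases before the start, with TATAAA 33 bases before it. Nr4a1 held 4 copies, and Dusp1 held 1 full TGACGTCA, which overlaps 2 of its 3 TGACG matches. The Jun window held none of the letters searched. Only exact matches were counted, so a sequence that differs from these letters was not found. Whether promoter sequence bears on the relations between arrays was not tested. The AP-1 element TGANTCA was in 0 of the 8 promoters (6.75% of all promoters) and the CArG box, the serum response element's core, in 0 of 8 (1.47% of all). No promoter sequence was available for Egr1 or Ier2, and bases farther than 250 from the start were not searched, so that 0 matches say nothing about elements there. A match is a description of these letters in this window and is not a measured site.

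All levels below are log2 processed signal minus the array's own 75th percentile, so that 0 is the level of a bright probe on that array. Probes bind with different strength, and levels are therefore compared between arrays and not between genes. A gene is represented by its brightest probe. The arrays differed in several respects that touch every result. Spots lay 2 grid rows off their probe names on 1 array of each genotype (wild-type replicate E, Roquin san/+ replicate G) and were moved back, which raised their correlation with the median array from at most 0.0149 to at least 0.889. Dim probes on these 2 arrays sit at a floor, and their values there are upper bounds. On the other 12 arrays 55.4% to 76.5% of probes were well above background. Genotypes were spread unevenly over both slides, with Roquin san/+ making up 5 of the 7 arrays of slide 1 and wild-type 5 of the 7 of slide 2.

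All 7 defining T-cell markers listed (Cd3d, Cd3e, Cd3g, Cd4, Cd28, Cd5 and Lck) were above background on all 12 well-placed arrays. Their mean log2 level was 3.31 to 3.75 on 11 arrays but 2.43 on Roquin san/+ replicate C, 2.15 on Roquin san/+ replicate F and 2.55 on wild-type replicate C. Replicate C of Roquin san/+ was also the dimmest array, with a 75th percentile of 107 against 339 to 996 on the other arrays. Replicate F of Roquin san/+ had the highest level of all 14 arrays for 5 of 5 B-cell, 7 of 8 myeloid, 3 of 3 NK and 3 of 4 erythroid markers tested. It was also highest for the 1 CD8 T-cell marker tested, at 2.57 against at most -0.51 on every other array. In bulk RNA fewer cells of a type and less RNA per cell cannot be told apart.

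No member differed detectably between genotypes. Of the 10 genes, 9 had a reference probe that passed the background filter (12 of the 16 probes), and of these 6 were higher and 3 lower in Roquin san/+ by their means, against 56% of all 32840 probes tested that were higher. The limma fit over all probes called 0 members and 0 of 32840 probes (0%) at an adjusted P of 0.05, with 999 probes (3.04%) and 0 member probes at an unadjusted P under 0.05. Adjusted P values of the 12 member probes ran from 0.884 to 0.981 and two-sided exact permutation P values from 0.293 to 0.875. The median difference of the 9 genes was 0.11 on the log2 scale, against 0.05 over all probes. The genotypes overlapped for all 9 genes, whereas 0.0426% of all probes tested had genotypes that did not overlap. A log2 change of 1 was recovered for 33% and of 2 for 64% of probes changed in simulated data of the same size, and the largest difference of a member was 0.46.

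**Figure D1:**
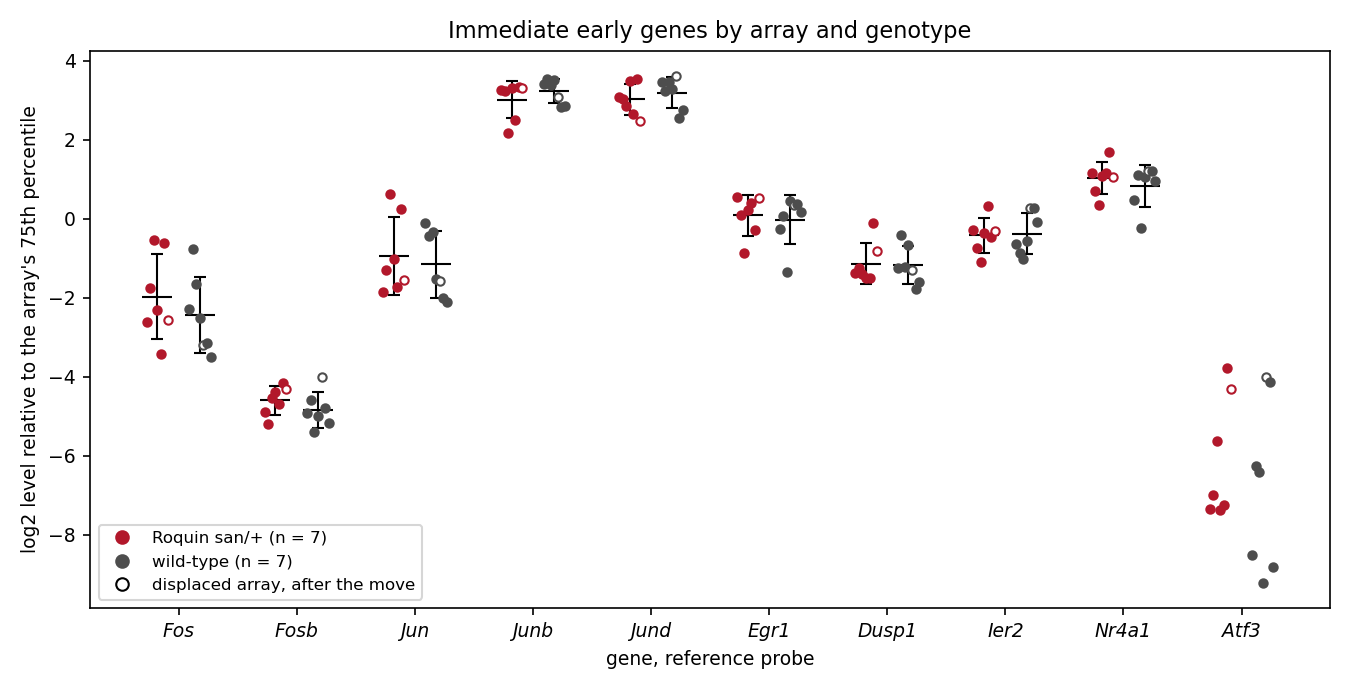
Log2 level of each gene's reference probe relative to the array's 75th percentile (vertical axis) on 7 Roquin san/+ arrays (red) and 7 wild-type arrays (grey), with the mean and SD as black bars where the probe was tested. Open circles are the 2 displaced arrays. The genotypes overlap for every gene, and Fos and Jun spread over 2.95 and 2.74 log2 units. Levels of different genes are not comparable.

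Among the AP-1 genes tested, Fos, which encodes a partner of Jun proteins in the AP-1 complex, showed the widest spread. Its level on the Roquin san/+ arrays ran from -3.42 through a median of -2.31 to -0.54, and on the wild-type arrays from -3.49 through -2.53 to -0.77. The 3 highest arrays were Roquin san/+ replicates C and F and wild-type replicate B, and the genotypes covered nearly the same range. The difference was 0.46 ± 0.51 (SE, n = 7 and 7, limma adjusted P = 0.888), which is 1.38-fold with a 95% interval of 0.651 to 2.93. It fell to -0.09 without Roquin san/+ replicates C and F and to 0.04 when wild-type replicate C was left out as well. On slide 1 it was 1.70 (two-sided exact permutation P = 0.0952) and on slide 2 it was -0.78 (exact P = 0.333), and with slide as a block it was 0.46. Whether the slides differed was not tested.

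Jun, the other founding AP-1 subunit, ran from -1.84 through -1.30 to 0.63 in Roquin san/+ and from -2.11 through -1.54 to -0.10 in wild-type. Its highest arrays were again Roquin san/+ replicates C and F, followed by wild-type replicates A, C and B, and the genotypes overlapped over most of their range. The difference was 0.22 ± 0.46 (SE, limma adjusted P = 0.940), and on the slides it was 1.29 and -0.58. It turned to -0.33 without Roquin san/+ replicates C and F.

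Junb, a Jun family member with weaker transactivation, was lower in Roquin san/+ by mean. Its reference probe ran from 2.18 through 3.26 to 3.32 in Roquin san/+ and from 2.82 through 3.39 to 3.53 in wild-type. Roquin san/+ replicates C and E were the lowest 2 arrays, while the other 5 lay inside the wild-type range. The difference was -0.21 ± 0.22 (SE, adjusted P = 0.888), with 0.23 on slide 1 and -0.48 on slide 2. A second Junb probe, which starts at position 707 of the transcript where the first starts at 1745, gave -0.15 ± 0.35 and followed the first over the arrays (r = 0.81, permutation P = 2.00e-04, n = 14). The other 2 Junb probes were above background on 4 and 1 of the 12 well-placed arrays and were not tested.

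Jund, the Jun family member that resting cells express at a steady level, ran from 2.46 through 3.02 to 3.55 in Roquin san/+ and from 2.55 through 3.27 to 3.61 in wild-type, overlapping almost wholly. The difference was -0.17 ± 0.22 (SE, adjusted P = 0.901) and 0.0025 with slide as a block. The second Jund probe gave -0.32 ± 0.37, and Roquin san/+ replicate C read 0.69 on it where the other 13 arrays read 2.99 to 3.66. The 2 Jund probes start 134 bases apart in the genome (mm9), yet correlated at only r = 0.36 (rho = 0.65).

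Fosb, a Fos relative with a late, stable splice form, was dim. It ran from -5.19 through -4.53 to -4.15 in Roquin san/+ and from -5.40 through -4.92 to -4.00 in wild-type. The wild-type maximum is the floor of the displaced replicate E, and the level of Roquin san/+ replicate G is a floor too, so these 2 values have no order. The difference was 0.24 ± 0.23 (SE, adjusted P = 0.884), and 0.33 ± 0.21 without both displaced arrays (exact permutation P = 0.110). Its other probe was above background on 0 of 12 well-placed arrays. Atf3, a stress-induced AP-1 partner, was above background on 1 of 6 well-placed Roquin san/+ arrays and 3 of 6 wild-type arrays and was not tested. Its highest levels on the well-placed arrays were -3.79 on Roquin san/+ replicate F and -4.14 on wild-type replicate F. On both displaced arrays it sat at the floor.

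Among the other transcription factors, Egr1, a zinc finger factor induced through the ERK pathway, ran from -0.88 through 0.22 to 0.54 in Roquin san/+ and from -1.34 through 0.17 to 0.45 in wild-type. Wild-type replicate C and Roquin san/+ replicate C were the lowest 2 arrays, and the other 12 arrays lay between -0.29 and 0.54. The difference was 0.11 ± 0.30 (SE, adjusted P = 0.956). Nr4a1 (Nur77), an orphan nuclear receptor widely used as a marker of T-cell receptor signalling, ran from 0.36 through 1.08 to 1.68 in Roquin san/+ and from -0.23 through 1.06 to 1.21 in wild-type. Roquin san/+ replicate F was highest and wild-type replicate C lowest, with near-equal medians. The difference was 0.20 ± 0.25 (SE, adjusted P = 0.901).

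Dusp1, a phosphatase that switches off MAP kinases and so feeds back on these genes, ran from -1.50 through -1.38 to -0.10 in Roquin san/+ and from -1.78 through -1.24 to -0.41 in wild-type. Its highest array was Roquin san/+ replicate F and the next wild-type replicate B, and the remaining arrays of both genotypes interleaved. The difference was 0.04 ± 0.26 (SE, adjusted P = 0.981), with 0.70 on slide 1 and -0.53 on slide 2. Ier2, a small nuclear protein of the early response, ran from -1.11 through -0.37 to 0.33 in Roquin san/+ and from -1.01 through -0.57 to 0.28 in wild-type, with Roquin san/+ replicate C and wild-type replicate C lowest. The difference was -0.05 ± 0.26 (SE, adjusted P = 0.979). A second probe under the name Ier2, drawn from the cDNA AK032692 rather than the RefSeq transcript, did not follow the first (r = -0.17, permutation P = 0.578, n = 14). The 2 probes start 1588 bases apart in the genome (mm9, chromosome 8, minus strand), and the second was at the floor on both displaced arrays.

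**Figure D2:**
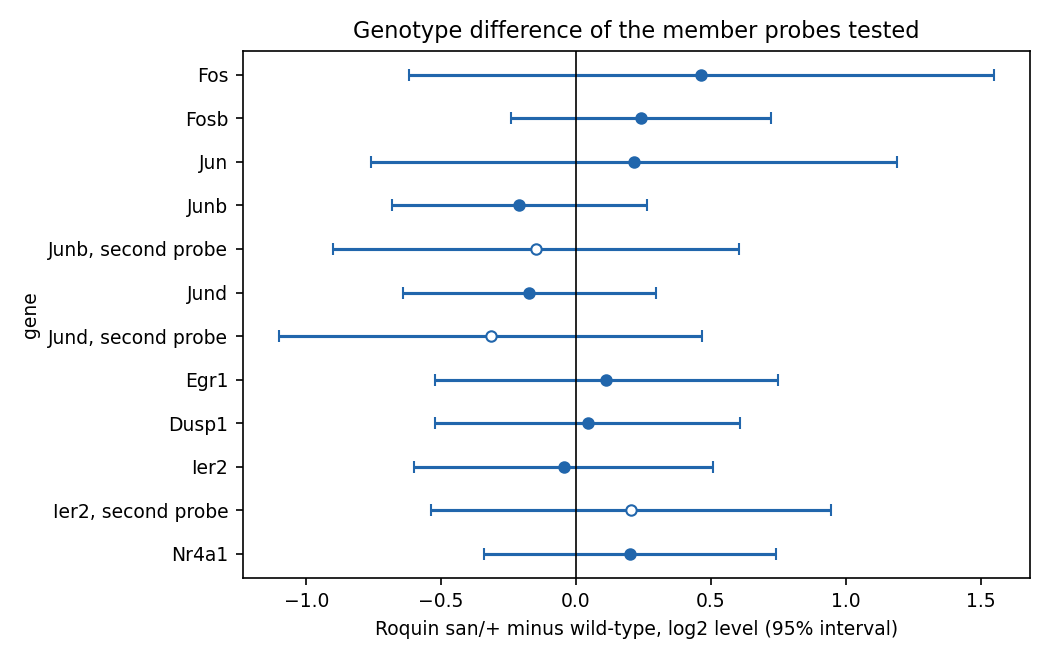
Difference in log2 level, Roquin san/+ minus wild-type, of the 12 member probes tested (points) with 95% intervals from the limma fit (bars), 7 arrays per genotype. Open points are second probes of a gene. All 12 intervals include 0, and that of Fos is the widest of the reference probes, from -0.62 to 1.55.

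Levels varied from array to array well beyond the genotype differences, and the genes did not move as 1 block. Of the 36 pairs among the 9 tested genes, 22 correlated positively and 14 negatively over the 14 arrays, with r between -0.82 and 0.87 and a median of 0.15. At an unadjusted permutation P under 0.05 there were 12 pairs, 8 of them positive and 4 negative, each gene taken by its reference probe. Many other probes did so too. In limma fits of every probe on genotype and the level of 1 member, an unadjusted P under 0.05 was found for 2172 of 32839 probes with Dusp1. With Fos, Jun and Egr1 it was found for 6180, 8783 and 8847 of 32839. The 12 pairs were not tested against these shares. Fos ran with Jun and with Dusp1, and Egr1 and Ier2 ran together and against both Fos and Jun. Nr4a1 ran with Egr1 and Ier2 but had no clear relation to Fos (r = -0.21, permutation P = 0.481) or Jun (r = -0.38, permutation P = 0.188). Also among the 12 pairs were Fosb with Nr4a1 (r = 0.60, permutation P = 0.0200), Junb with Jund (r = 0.54, permutation P = 0.0444) and Junb with Dusp1. Without both displaced arrays r was 0.62 for Fosb with Nr4a1 and 0.75 for Junb with Jund.

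Fos and Jun had the closest relation (r = 0.87, permutation P = 9.0e-05; rho = 0.93, permutation P = 2.0e-05, n = 14). The correlation was 0.93 within Roquin san/+ (exact P = 0.00536) and 0.81 within wild-type (exact P = 0.0306), and 0.97 and 0.76 on slides 1 and 2. It was 0.76 without the 2 arrays farthest from the median Fos level, which were Roquin san/+ replicates C and F, and 0.73 when wild-type replicate C was left out too. In the limma fit of every probe on genotype and the level of Fos, Jun rose by 0.78 ± 0.13 log2 units (SE) per log2 unit of Fos (adjusted P = 0.0144). That fit called 475 of 32839 probes (1.45%), 344 upward (1.05%) and 131 downward (0.399%), and Jun was the 1 member among them. At an unadjusted P under 0.05 there were 4 of the 8 other members, against 18.8% of all probes. Its r with Fos stood above that of 99.8% of all probes tested, whose median r was 0.14. Leaving out 1 array at a time moved the number of probes called between 33 (without Roquin san/+ replicate E) and 1039 (without wild-type replicate E), and the adjusted P of Jun between 0.0119 and 0.0532 (without Roquin san/+ replicate E, the 1 array whose omission took it past the threshold). The slope no longer passed without Roquin san/+ replicates C and F (0.63, adjusted P = 0.172), in a fit on 12 arrays.

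Ier2, by its reference probe, ran against Fos (r = -0.82, permutation P = 5.9e-04; rho = -0.89, permutation P = 6.0e-05, n = 14). The 3 arrays with the lowest Ier2 levels, Roquin san/+ replicate C and wild-type replicates C and B, were among the 4 with the highest Fos levels. The correlation was -0.83 within Roquin san/+ and -0.84 within wild-type (exact P = 0.0161 and 0.0179), -0.81 and -0.87 on slides 1 and 2, and -0.87 without Roquin san/+ replicates C and F. The slope on Fos was -0.39 ± 0.09 (SE, adjusted P = 0.0503), just outside the threshold, and only 0.630% of probes had a lower r with Fos. With Ier2 in the place of Fos, 1.75% of probes were called and Fos was among them, with a slope of -1.74 ± 0.34 (adjusted P = 0.0253). The second probe named Ier2, which did not follow the reference probe (r = -0.17), did not show this pattern at its extremes. It was highest on Roquin san/+ replicate F (-2.40), where Fos was second highest, and lowest on wild-type replicate G (-5.30), where Fos was lowest. Its relation to Fos was not tested.

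**Figure D3:**
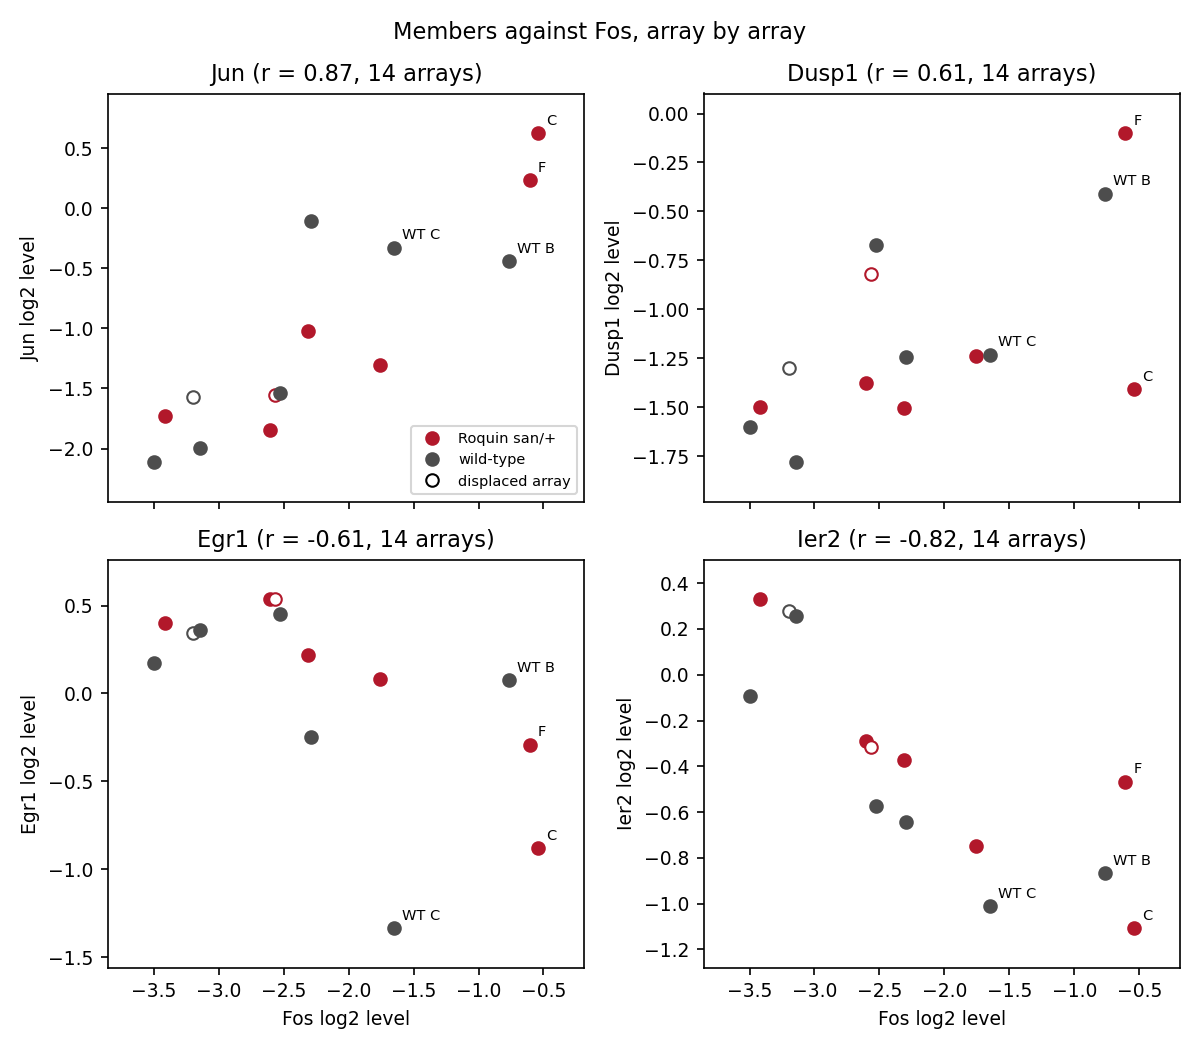
Log2 level of Jun, Dusp1, Egr1 and Ier2 (vertical axes) against the log2 level of Fos (horizontal axis) on 7 Roquin san/+ (red) and 7 wild-type (grey) arrays; open circles are the displaced arrays, and C, F, WT B and WT C mark Roquin san/+ replicates C and F and wild-type replicates B and C. Jun rises with Fos (r = 0.87) and the reference probe of Ier2 falls (r = -0.82) in both genotypes.

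Egr1 also ran against Jun (r = -0.77, permutation P = 0.00100; rho = -0.75, permutation P = 0.00249, n = 14). This held within Roquin san/+ (r = -0.95, exact P = 0.00218) and within wild-type (r = -0.67, exact P = 0.0452), and on slides 1 and 2 (-0.90 and -0.71). With Jun as the reference, 4% of probes were called and Egr1 was among them (slope -0.50 ± 0.12, adjusted P = 0.0407), as was Fos (0.98 ± 0.16, adjusted P = 0.0146). The relation of Egr1 to Fos was weaker (r = -0.61, permutation P = 0.0169; rho = -0.71, permutation P = 0.00534) and rested in part on the 2 highest Fos arrays, since r was -0.46 (permutation P = 0.131) without them.

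With Nr4a1 or Dusp1 as the reference, 1.24% and 0.314% of probes were called and no member was among them, and with Fosb, Junb or Jund 0 probes (0%) were called. Egr1 and Nr4a1 correlated at r = 0.75 (permutation P = 0.00419), but rho was 0.45 (permutation P = 0.108). Without the 2 arrays farthest from the median Egr1 level, wild-type replicate C and Roquin san/+ replicate C, r was 0.11. Without Roquin san/+ replicate F as well it was 0.80 (permutation P = 0.00510, n = 11; rho = 0.46). The r of the other 11 arrays was close to that over all 14, but these arrays were chosen after seeing the data and rho was only 0.46. Where replicate F was kept without the 2 replicates C, r was low. Replicate F had the highest Nr4a1 level of all 14 arrays and the third lowest Egr1 level. Egr1 and Ier2 (r = 0.69, permutation P = 0.00522) dropped to 0.47 without the same 2 arrays. Ier2 and Nr4a1 correlated at 0.61 (permutation P = 0.0168) and still at 0.62 without the 2 arrays farthest in Ier2. With Egr1 as the reference 9.51% of probes were called, and Jun (-1.27 ± 0.28, adjusted P = 0.0156) and Nr4a1 (0.62 ± 0.17, adjusted P = 0.0413) were among them.

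Dusp1 rose with Fos (r = 0.61, permutation P = 0.0199), and r was 0.46 (permutation P = 0.107) without Roquin san/+ replicate F and 0.66 (permutation P = 0.0190) without replicates C and F of that genotype. It rose with Junb as well (r = 0.56, permutation P = 0.0337; rho = 0.77, permutation P = 0.00198). Junb did not follow Fos over all 14 arrays (r = 0.13), although r was 0.77 without Roquin san/+ replicates C and F and 0.07 without F alone. Roquin san/+ replicate C had the highest Fos and the lowest Junb level of all 14 arrays. Jund (r = 0.34), Fosb (0.14) and Nr4a1 (-0.21) had no clear relation to Fos (adjusted P of the slopes 0.436, 0.915 and 0.613).

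**Figure D4:**
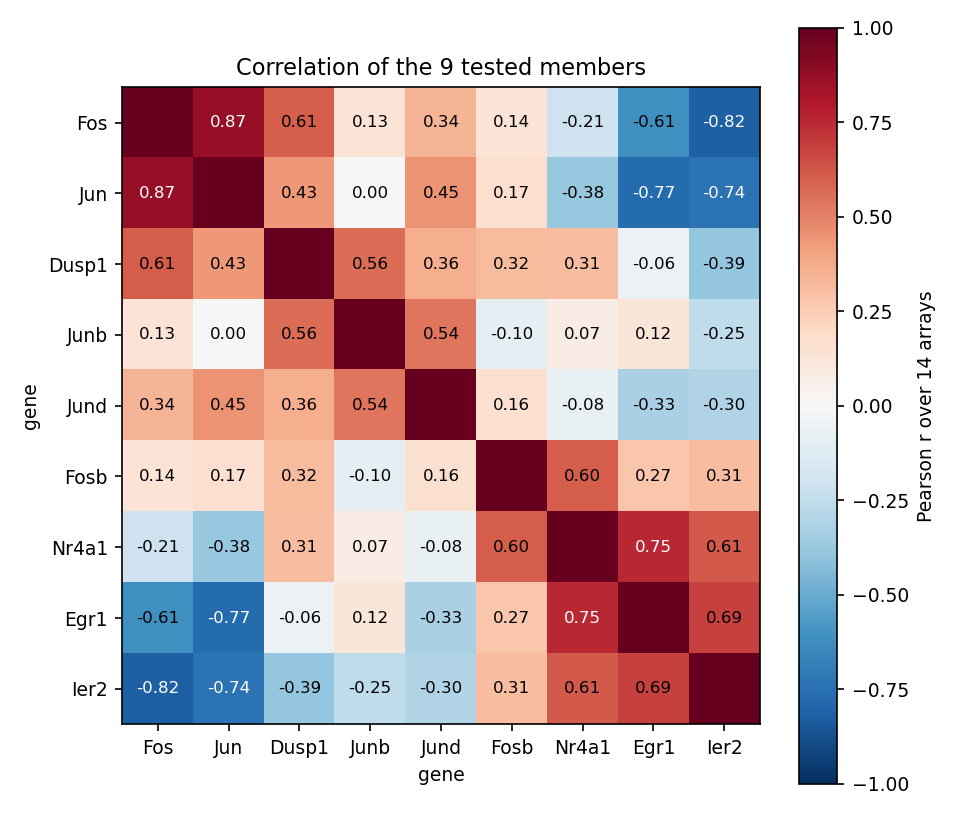
Pearson correlation over 14 arrays between the log2 levels of the 9 tested genes (rows and columns; colour scale from -1 to 1, red positive). Fos with Jun (0.87) is the highest and Fos with Ier2 (-0.82) the lowest of the 36 pairs.

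The T-cell marker level fell into 3 low arrays and 11 others, and r is therefore given within the 11. There Jun correlated with it at r = -0.68 (permutation P = 0.0204; rho = -0.62), Egr1 at 0.65 (permutation P = 0.0280; rho = 0.66), Fos at -0.51 (permutation P = 0.101), Nr4a1 at 0.45 (permutation P = 0.164), Ier2 at 0.35 (permutation P = 0.283) and Dusp1 at -0.26 (permutation P = 0.443). The 3 low arrays held the lowest 3 Egr1 levels and 3 of the 5 highest Jun levels. The B-cell marker mean had r = 0.82 with Fos (permutation P = 0.00191), 0.72 with Dusp1 (permutation P = 0.0126) and -0.61 with Ier2 (permutation P = 0.0454) within the same 11 arrays, where it was highest on wild-type replicate B. Without that array and Roquin san/+ replicate F, the 2 farthest from its median, these were 0.45, 0.51 and -0.39 (permutation P = 0.146, 0.0912 and 0.214, n = 12). The myeloid marker mean had r = 0.56 with Fos and 0.51 with Jun there (permutation P = 0.0683 and 0.105), and the erythroid marker mean -0.66 with Egr1 (permutation P = 0.0261). In all, 42 such relations were computed over 6 genes, 6 marker lists and the array's 75th percentile. Of these, 6 had an unadjusted P under 0.05 within the 11 arrays and 0 an adjusted P under 0.05 (lowest 0.0802, Fos with B-cell markers). Over all 14 arrays, the 3 low arrays included, several had an adjusted permutation P under 0.05. These were T-cell markers with Jun (r = -0.84), Fos (-0.77) and Egr1 (0.81), and B-cell markers with Dusp1 (0.84) and Fos (0.71). They also included myeloid markers with Fos (0.74) and Jun (0.71), and erythroid markers with Jun (0.75) and Egr1 (-0.71). Their adjusted P ran from 0.00651 to 0.0230. Within the 11 arrays the relation of Fos to Jun was still 0.73 (permutation P = 0.0119) and that of Fos to Ier2 -0.86 (permutation P = 1.6e-04). The part of other cells in these levels was not tested.

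**Figure D5:**
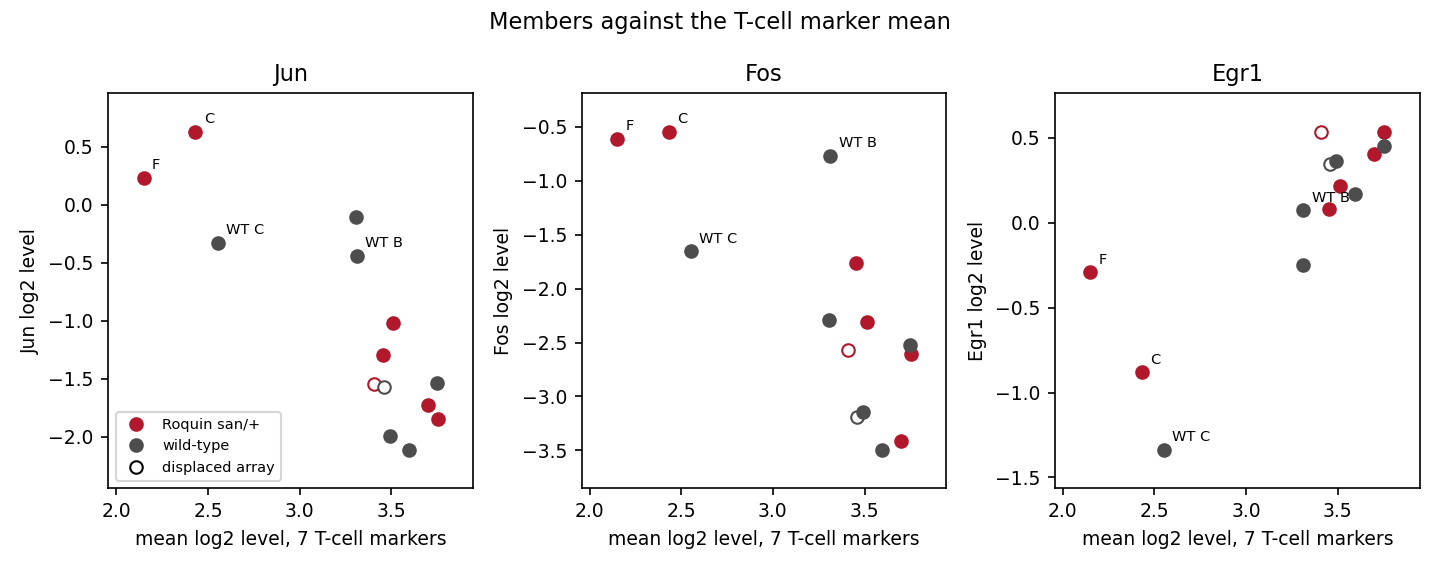
Log2 level of Jun, Fos and Egr1 (vertical axes) against the mean log2 level of 7 T-cell markers (horizontal axis) on 7 Roquin san/+ (red) and 7 wild-type (grey) arrays, with open circles for the displaced arrays. Roquin san/+ replicates C and F and wild-type replicate C lie apart between 2.15 and 2.55, with high Jun and low Egr1 levels.

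The other genes of the pathway were taken from 6 lists with 67 genes, of which 62 were tested. None was called between genotypes in either direction, 7 had an unadjusted P under 0.05 (3.04% of all probes), and 0 had a slope on Fos that passed the test (1.45% of all probes). The counts of genes higher or lower by mean that follow stand beside 56% of all probes higher and a median difference of 0.05 over all probes. Dim probes sit at a floor of -4.32 on the displaced Roquin san/+ replicate G and of -4.00 on wild-type replicate E. Of the genes named below, Egr4, Batf2, Ier3 and Hspa1a had means under these floors in both genotypes. Jdp2, Batf3 and Nr4a3 did so in wild-type and Hspa1b in Roquin san/+, so that these means may hold upper bounds.

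Of the other AP-1 family and partner genes, 8 of 10 tested were higher in Roquin san/+ by mean and the median difference was 0.22. The largest was Jdp2, a repressor of AP-1 sites, with a mean of -3.63 against -4.57 (difference 0.94 ± 0.30 SE, adjusted P = 0.884). Batf3 (0.89 ± 0.44) and Batf2 (0.73 ± 0.42) followed with adjusted P = 0.884 each. Jdp2, Batf3 and Mafg also had the highest correlations with Fos on this list, from 0.63 to 0.64. For the EGR and NR4A relatives, 5 of 6 tested were higher and the median difference was 0.50, led by Egr4 (0.96 ± 0.71), Nr4a2 (0.83 ± 0.40) and Nr4a3 (0.52 ± 0.24), again with adjusted P = 0.884. The Egr4 means of -5.84 and -6.80 lay under the floors of the displaced arrays. Nr4a3, Nr4a2 and Egr4 were also the 3 that followed Fos most closely on this list (r = 0.50, 0.44 and 0.17).

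Among the dual-specificity phosphatases, Dusp4, which acts on nuclear MAP kinases, was the most different (0.85 ± 0.28, adjusted P = 0.884), while Dusp5 (-0.38 ± 0.22) and Dusp10 (-0.31 ± 0.27) pointed the other way, and 3 of 5 were higher by mean. Their correlations with Fos were highest for Dusp4 (0.25), Dusp6 (0.12) and Dusp2 (-0.47). Of 21 other early response genes tested, 16 were higher by mean with a median of 0.09. Gadd45b, a stress-induced regulator of p38 signalling, had the largest difference (0.78 ± 0.23, means -0.87 and -1.65), and Ier3 (0.69 ± 0.47) and Klf4 (0.68 ± 0.46) followed (adjusted P = 0.884 each). Gadd45g, Ier3 and Ppp1r15a had the highest correlations with Fos there (0.67, 0.60 and 0.56).

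The upstream kinases and promoter-binding factors had a median difference of 0.0011 over 15 genes. Elk1 (0.52 ± 0.44), Srf (-0.35 ± 0.31) and Elk3 (0.27 ± 0.23) differed most, and the correlation with Fos was 0.51 for Elk1 and 0.30 for Map2k1. The Elk1 probe read far above the others on this list, with means of 7.36 in Roquin san/+ (SD 1.18) and 6.84 in wild-type (SD 0.38). Whether it measures Elk1 alone was not tested. Of the 15, 11 correlated negatively with Fos, against 39.0% of all probes. All 5 heat shock genes were lower in Roquin san/+ by mean (median -0.36), with Hspa1b at -1.40 ± 0.64, Hspa1a at -1.13 ± 0.79 and Hsph1 at -0.36 ± 0.34 (adjusted P = 0.884 each). Hspa1a and Hspa1b are near-identical copies whose probes may share signal. The highest correlations with Fos were 0.38 for Hspa1a, 0.36 for Hspa1b and 0.13 for Hspa8.

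Positive correlations with Egr1 over the 14 arrays were found for 42.2% of all probes tested, with a median r of -0.10. They were found for all 5 dual-specificity phosphatases (median 0.57), 4 of 6 EGR and NR4A relatives (0.44), 12 of 15 upstream factors (0.28), 14 of 21 other early response genes (0.06), 4 of 10 AP-1 relatives (-0.17) and 1 of 5 heat shock genes (-0.26). Differences between the lists were not tested. Since 14 of the 36 pairs of members correlated negatively, the mean of the members is not a profile that all of them share. The genes closest to that mean were picked by their r alone. Outside these lists, the genes whose levels were most like the mean of the 9 standardised members were Grb2 (r = 0.91, 14 arrays), an adaptor of receptor signalling, Fam43a (0.89), A530010L16Rik (0.89), Mif4gd (0.88), Ptk2b (0.88), Ctsa (0.87), Grk2 (0.87) and a chromosome 1 locus without a gene name (0.87).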

How the data were processed

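The authors deposited, for each of the 14 arrays, spot intensities from Agilent Feature Extraction 10.5.1.1 (1-colour Cy3, probe coordinates on mm9), with a processed signal that the software had background-subtracted, detrended and held at a floor for spots below background. A deposited table of the authors' log2 values, with equal quantiles in every column, served as an alternative. Its method is not given in the sources used here.

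Each array was set against the median array over 169 grid shifts (up to 6 rows or columns), and wild-type replicate E and Roquin san/+ replicate G were moved by 2 rows. Processed signals were taken to log2, averaged over the spots of a probe, and scaled by subtracting the array's 75th percentile, taken over 24219 probes that were detected well above background on every one of the 12 well-placed arrays. Probes well above background on at least 6 of these 12 arrays passed (33114), 274 of them were left out for a missing value, and 32840 were tested. Differences and slopes on Fos were fitted with limma 3.58.1 in R 4.3.3 (lmFit, eBayes, Benjamini-Hochberg adjustment, threshold 0.05). Single probes were also tested over all arrangements of the arrays in a fit (two-sided exact permutation). For 7 and 7 arrays these are 3432, with a smallest P of 5.83e-04. Fits on fewer arrays have fewer arrangements and a larger smallest P. Correlations have P values from 100000 resamples, or are exact for 7 arrays, with Python 3.11.15, numpy 2.4.6, pandas 2.3.3 and scipy 1.17.1. Precision is limited by the number of arrays.

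The fit was tested on simulated data over 32840 probes, of which 7 were called falsely. Members and lists were chosen with earlier results of these data known. The genes named outside the members were, for each list, the 3 with the largest difference and the 3 with the highest correlation with Fos and the 8 genes closest to the members' mean profile. One gene that this rule selects is not reported here. The omission of arrays with low T-cell marker levels was added after seeing the data. Alternatives covered background correction, scaling, the filter, slide, replicate letters, the variance model, array weights and leaving out arrays. The labels do not say whether replicate letters pair arrays. Same-lettered deviations from the genotype means correlated at -0.28 to 0.41 and were not compared with those of unlike letters. The main fits therefore do not pair arrays.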

Additional observations from a re-analysis of the deposited data

Results flagged for a closer look

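In 24 sets of 7 arrays (12 probes in 2 genotypes), 3 held an array far from the others by Dixon's test at the 95% level, which chance gives in about 1 of 20 sets. The second Jund probe read 0.69 on Roquin san/+ replicate C, the dimmest array, whereas the reference probe of Jund read 2.85 there. Egr1 read -1.34 on wild-type replicate C, an array with a low T-cell marker level. The second probe named Ier2 read -5.30 on wild-type replicate G. Causes were not tested.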

How the results depend on the processing

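The number of probes called between genotypes was 0 under all 34 alternatives run, and no member passed in any of them (lowest limma adjusted P 0.523; 0 of 277 exact permutation P values under 0.05, which the blocked and weighted fits do not have). The fits on a slide alone have few arrangements, so an exact permutation P under 0.05 was hardly reachable there. The sign of small differences did turn, and no sign was past a threshold. Values below are log2 differences, Roquin san/+ minus wild-type. Normexp gave 0.013 for Ier2. Quantile normalization gave -0.13 for Fosb and -0.024 for Dusp1. The 75th percentile over all probes gave -0.0063 for Egr1 and -0.075 for Dusp1, and that over probes called on all 14 arrays 0.0079 for Ier2. Slide as a block gave 0.0025 for Jund. Slide 1 alone gave 0.23 for Junb, 0.34 for Jund, -0.27 for Egr1 and -0.096 for Nr4a1, and slide 2 alone -0.78 for Fos, -0.58 for Jun, -0.53 for Dusp1 and 0.54 for Ier2. The authors' log2 values gave -0.0064 for Fosb, 0.022 for Jund and -0.094 for Dusp1, and the deposited names without the move -0.085 for Dusp1 and 0.14 for Ier2. Without both displaced arrays Dusp1 was at -0.031 and Ier2 at 0.045. Array weights, whose fit stopped before convergence, gave -0.040 for Jun, 0.071 for Jund, -0.20 for Dusp1 and 0.018 for Ier2, and the mean of its probes 0.079 for Ier2. Without Roquin san/+ replicates C and F the values were -0.095 for Fos, -0.33 for Jun, -0.11 for Dusp1 and 0.099 for Ier2, and without the displaced arrays as well -0.21, -0.39, -0.25 and 0.22. Without these 2 and wild-type replicate C, Jun was at -0.19 and Dusp1 at -0.12. With single arrays omitted, Jun ranged from -0.046 to 0.39, Egr1 from -0.11 to 0.27, Dusp1 from -0.13 to 0.17 and Ier2 from -0.17 to 0.068. The median difference over all probes was 0.05, and it moved to 0.22 with normexp, -0.08 with quantile normalization, -0.07 with the percentile over all probes and 0.34 with no filter.

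The number of probes called for a slope on Fos depended on the setting far more. It was 475, and it was 1570 with normexp, 114 with quantile normalization, 150 with the percentile over all probes, 737 with the filter on 7 arrays as called, 66 with no filter, 276 with slide as a block, 738 with the authors' values, 1736 without both displaced arrays, 888 with a robust trended variance, 9875 with array weights, 228 without Roquin san/+ replicates C and F, 148 without wild-type replicate C as well, and 33 to 1039 with 1 array left out. With the deposited names it was 0 (1725 at an unadjusted P under 0.05). With a replicate block it was 0 (3343 at an unadjusted P under 0.05) and with a replicate block and slide block 0 (8078), while Junb stood at 0.044 and Egr1 at -0.12 between genotypes under both blocks, and the slope of Nr4a1 at 0.18 and 0.26. Whether the letters pair the arrays is not known. Slopes that turned sign were those of Fosb (-0.095 with the percentile over all probes, -0.13 with the authors' values, -0.089 and -0.017 without the 2 or 3 arrays named, -0.034 to 0.092 with 1 array left out), Junb (-0.0050 with the percentile over all probes, -0.041 with deposited names), Jund (-0.066 with the mean of its probes) and Nr4a1 (0.029 with array weights). Without Roquin san/+ replicates C and F the correlation with Fos was -0.18 for Fosb, 0.77 for Junb and -0.46 for Egr1, and without wild-type replicate C too it was -0.036, 0.76 and -0.42. Without Roquin san/+ replicate F alone it was -0.050 for Fosb, 0.074 for Junb, -0.61 for Egr1 and 0.46 for Dusp1, and Dusp1 was at 0.70 without the 3 arrays. The causes were not tested.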
